A study of Mus musculus with 20 samples.

Results

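The genes described here are the mouse histocompatibility-2 (H2) genes of chromosome 17, with Ubd and Gm10499, which lie among them. The H2 genes were chosen by name, as every gene whose name on the array begins with H2-. Ubd and Gm10499 were picked on their values in these lines, bright in some and near background in others, so their levels are given as a description and without a test. In all, 42 genes read by 51 probes were followed, of 36492 genes read by 55681 probes on the array. Of the 40 H2 genes, 25 had a probe well above background on at least 4 of the 20 arrays, as had 27161 genes of the whole array. The other 15 H2 genes were too dim to follow and are accounted for further on.

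Expression had been measured on 20 one-colour Agilent arrays in 10 mouse lines, 2 arrays each, of which 7 were reprogrammed (induced pluripotent stem cells, iPSCs) and 3 were embryonic stem cells (ESCs). Reprogramming used one of 2 factor sets, SNEL, which is Sall4, Nanog, Esrrb and Lin28, or OSKM, which is Oct4, Sox2, Klf4 and Myc. In the labels each iPSC line carries a quality grade, which is poor, good or high. KH2_OSKM was graded poor and is set against KH2 ESCs. BC_2 OSKM was graded good and has no ESC line of its own origin. Nanog-GFP OSKM#2 (poor), Nanog-GFP SNEL#3 (good) and Nanog-GFP SNEL#2 (high) are set against Nanog-GFP ESCs. Oct4-GFP OSKM#2 (poor) and Oct4-GFP SNEL#1 (high) are set against Oct4-GFP ESCs. All lines grew in 2i medium, which blocks MEK and GSK3 signalling, without feeder cells. The name shared by an iPSC and an ESC line is called its origin here. Neither the mouse strain nor the H2 haplotype of an origin is given in the sources used here, and each combination of origin, factors and grade is 1 line. The 2 arrays of a line are not said to come from separate cultures, so their spread may be technical. A p-value therefore rests on the spread between lines.

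The H2 region is the mouse major histocompatibility complex. Classical class I molecules, encoded by H2-K1 and H2-D1, pair with beta-2 microglobulin and show peptides from inside the cell to CD8 T cells. The Q, T and M genes encode class I molecules of more restricted roles, such as H2-T23 (Qa-1), a ligand of natural killer cell receptors. Class II molecules, among them the chains encoded by H2-Ab1 and H2-Eb1, show peptides from endosomes to CD4 T cells and are typical of professional antigen presenting cells. H2-DMa and H2-DMb1 encode a complex that loads class II with peptide, and H2-Oa and H2-Ob encode its modulator. Mouse ESCs are known for low surface levels of class I. Ubd encodes FAT10, a ubiquitin-like modifier that sends proteins to the proteasome. Gm10499 is a protein-coding gene that RefSeq lists under the synonym MumuTL, which it shares with H2-T3, the gene of the thymus leukaemia antigen.

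A level here is the log2 of a signal over its array's 75th percentile, so that 0 is the signal that 3 in 4 probes fall below, and each level belongs to 1 probe. A line's level is the mean of its 2 arrays. The 20 arrays had a 75th percentile signal of 513 to 914 and between 48.9% and 77.2% of their probes well above background. Array 1 of KH2_OSKM stood apart with 77.2%, against 58.3% on array 2 of that line. The array correlation over all genes within a line ran from 0.977 in KH2_OSKM to 0.992 in Nanog-GFP SNEL#2. The labelled cell type was checked with 10 pluripotency genes. All 10 were well above background on all 20 arrays, and Pou5f1 lay between 5.35 and 6.70 and Nanog between 6.72 and 7.44 in the 10 lines.

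The H2 genes varied widely between lines. The line means of the 25 measured H2 genes spanned a median of 2.62 on the log2 scale between the lowest and the highest line, against a median span of 1.12 over all genes. A span of at least 2 was reached by 18 of the 25 (72.0%), against 19.8% of all genes and 52 of 169 other genes between the outermost H2 probes (30.8%). Among genes well above background on all 20 arrays it was 13 of 19 H2 genes (68.4%), against 1856 of 18490 genes in all. Just inside that span lay H2-T24 at 2.00 and just outside it H2-Q5 at 1.86. These outer probes lie at chr17:34076578 and chr17:37618101 of mouse build mm9, 3.54 Mb apart. The region and the genes had been picked with such values in view, so the shares describe the members and are no test.

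KH2_OSKM was the highest line for 8 of the 25 genes, against 17.8% of all genes, for which it was also the most frequent highest line. BC_2 OSKM was highest for 6 (9.02% of all genes) and Oct4-GFP SNEL#1 for 5 (5.86%). Nanog-GFP SNEL#3 was the lowest line for 10 of the 25, against 13.5% of all genes. Taken as a difference from each gene's mean over the 10 lines, the median H2 gene lay at 1.05 in KH2_OSKM, against -0.19 in KH2 ESCs. It lay at 0.64 in BC_2 OSKM. It lay at -0.02 in Nanog-GFP OSKM#2, -0.70 in Nanog-GFP SNEL#3 and -0.68 in Nanog-GFP SNEL#2, against 0.59 in Nanog-GFP ESCs. In the Oct4-GFP lines the median was -0.34 in OSKM#2 and 0.24 in SNEL#1, against -0.51 in the ESCs. The median of all genes stayed between -0.08 and 0.06 in each of the 10 lines. Lines of 1 origin thus lay on both sides of the H2 mean in all 3 origins with more than 1 line.

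H2-K1 (probe at chr17:34133055-34133114, mm9, minus strand) gave the clearest order of the classical class I genes. It read 3.73 and 3.67 on the arrays of KH2_OSKM, against 1.95 and 1.93 for KH2 ESCs, and 3.47 and 3.48 for BC_2 OSKM. In the Nanog-GFP lines it read 1.96 and 1.93 in OSKM#2, 0.85 and 0.82 in SNEL#3 and 1.23 and 1.29 in SNEL#2, against 2.76 and 2.80 in the ESCs. In the Oct4-GFP lines it read 1.57 and 1.66 in OSKM#2 and 2.72 and 2.71 in SNEL#1, against 1.64 and 1.68 in the ESCs. H2-K1 was therefore highest in KH2_OSKM and BC_2 OSKM and lowest in the SNEL lines of Nanog-GFP origin, yet the SNEL line of Oct4-GFP origin lay above its ESC line. In the order of the 10 lines, only Nanog-GFP OSKM#2 and KH2 ESCs, and Oct4-GFP ESCs and Oct4-GFP OSKM#2, had overlapping arrays. H2-D1 (chr17:35403886-35403945, plus strand) read 1.83 and 1.87 in KH2_OSKM, against 0.65 and 0.59 in KH2 ESCs, and 0.87 and 0.85 in BC_2 OSKM. For H2-D1 the Nanog-GFP lines read 1.30 and 1.28 in OSKM#2, -0.24 and -0.25 in SNEL#3 and 0.08 and 0.11 in SNEL#2, against 1.06 and 1.03 in the ESCs. Oct4-GFP values of H2-D1 were 0.29 and 0.41 in OSKM#2 and 0.73 and 0.80 in SNEL#1, against 0.31 and 0.43 in the ESCs. H2-D1 kept a smaller span, from -0.24 in Nanog-GFP SNEL#3 to 1.85 in KH2_OSKM, with a largest gap of 0.12 between the arrays of a line. KH2_OSKM exceeded KH2 ESCs by 1.23 in H2-D1 and by 1.76 in H2-K1.

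**Figure D1:**
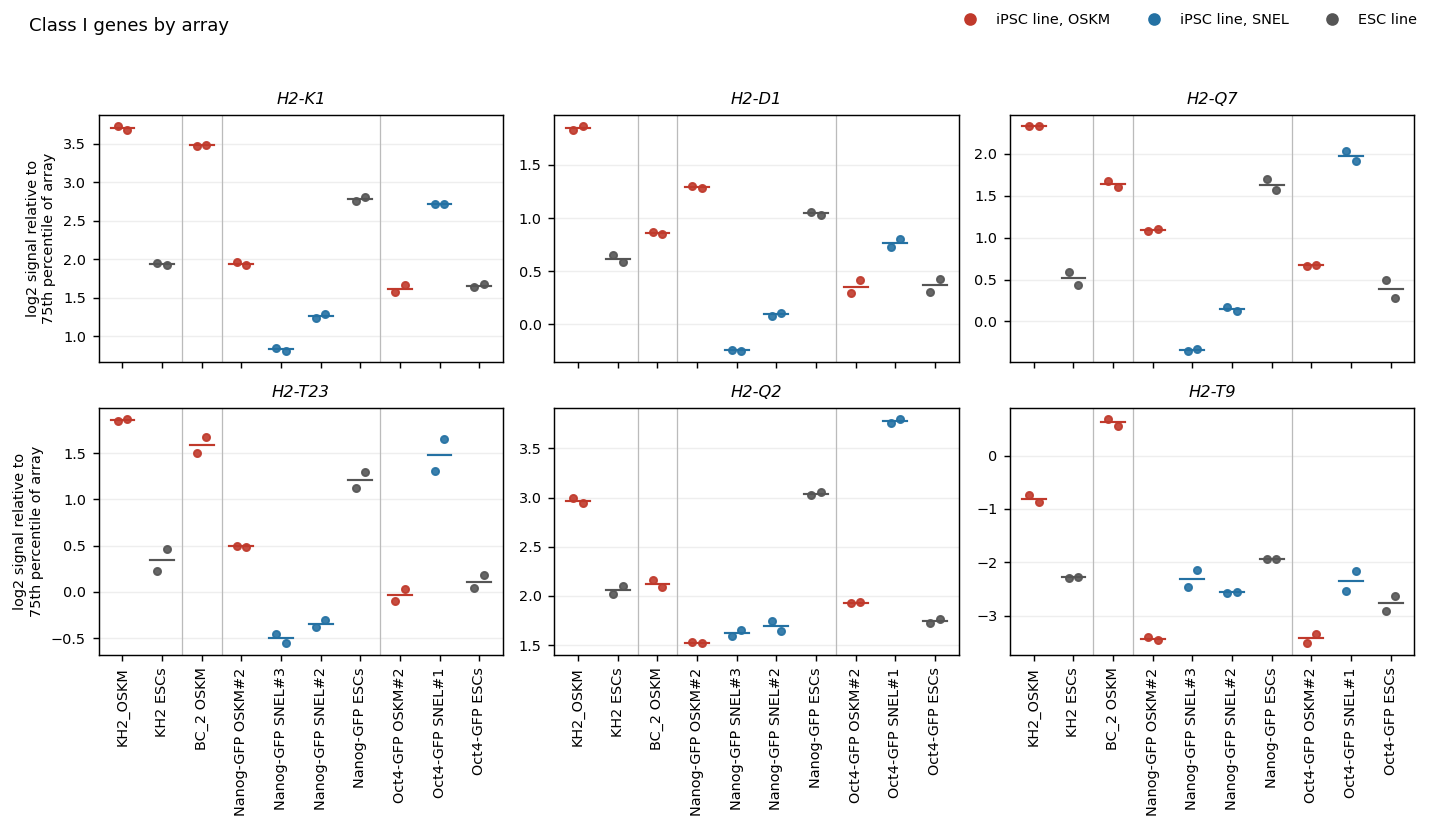
Log2 signal over the array's 75th percentile for 6 class I genes in the 10 lines, a dot per array and a bar at the line mean, with origins parted by vertical lines and a separate vertical scale in each panel. H2-K1, H2-D1, H2-Q7 and H2-T23 are lowest in Nanog-GFP SNEL#3, while H2-Q2 is highest in Oct4-GFP SNEL#1 and H2-T9 in BC_2 OSKM.

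The second H2-K1 probe and the H2-T23 probe have 29 bases in a row in common, shown because they limit what either probe can tell of its own gene, and the capitals mark the shared bases:
H2-K1, chr17:34133984-34134043, mm9, minus strand: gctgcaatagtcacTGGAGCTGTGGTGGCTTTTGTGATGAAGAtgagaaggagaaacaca
H2-T23, chr17:36167338-36167574, mm9, minus strand, spliced: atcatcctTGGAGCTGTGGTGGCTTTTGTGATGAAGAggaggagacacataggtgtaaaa
The first H2-K1 probe has no stretch of 17 or more bases in common with another member's probe. Probes outside the members and transcripts were not compared, so this does not show that it reads H2-K1 alone. The 2 H2-K1 probes lay 1.19 to 1.53 apart in the 10 lines, and the first spanned 2.86 and the second 2.72. H2-T23 read 1.84 and 1.87 in KH2_OSKM, against 0.22 and 0.46 in KH2 ESCs, and 1.51 and 1.67 in BC_2 OSKM. For H2-T23 the Nanog-GFP lines read 0.50 and 0.48 in OSKM#2, -0.45 and -0.55 in SNEL#3 and -0.38 and -0.31 in SNEL#2, against 1.12 and 1.30 in the ESCs. Oct4-GFP values of H2-T23 were -0.10 and 0.03 in OSKM#2 and 1.31 and 1.66 in SNEL#1, against 0.04 and 0.18 in the ESCs. It spanned 2.36, from -0.50 in Nanog-GFP SNEL#3 to 1.86 in KH2_OSKM. How much of the H2-T23 signal came from H2-K1 transcripts was not tested.

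Among the Q, T and M genes, 15 of 26 were measured and 11 of them spanned at least 2. H2-Q7, which encodes a Qa-2 antigen, read 2.33 and 2.33 in KH2_OSKM, against 0.59 and 0.44 in KH2 ESCs, and 2.03 and 1.92 in Oct4-GFP SNEL#1, against 0.50 and 0.28 in Oct4-GFP ESCs. In Nanog-GFP SNEL#3 it was -0.35 and -0.33 and in Nanog-GFP SNEL#2 0.17 and 0.12, against 1.70 and 1.56 in Nanog-GFP ESCs. The arrays of these pairs did not overlap. H2-Q2 had another order, with Oct4-GFP SNEL#1 on top at 3.76 and 3.80, against 1.72 and 1.76 in Oct4-GFP ESCs. Its lowest line was Nanog-GFP OSKM#2, at 1.53 and 1.52, against 3.02 and 3.06 in Nanog-GFP ESCs. H2-Q8 and H2-Q10 were likewise highest in Oct4-GFP SNEL#1, at 0.69 and 1.07. H2-Q5, just outside the span of 2, lay between 1.67 and 3.53 and was highest in the same line, while H2-Q6 lay between -1.10 and 0.65 with KH2_OSKM highest. The H2-Q10 probe read here shares 19 bases in a row with the dimmer H2-Q2 probe. How much of the H2-Q10 signal came from H2-Q2 transcripts was not tested.

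H2-Q10 read -0.07 and -0.09 in KH2_OSKM, against -0.60 and -0.64 in KH2 ESCs, and -0.69 and -0.70 in BC_2 OSKM. For H2-Q10 the Nanog-GFP lines read -1.17 and -1.20 in OSKM#2, -0.90 and -0.96 in SNEL#3 and -1.09 and -1.12 in SNEL#2, against 0.20 and -0.01 in the ESCs. Oct4-GFP values of H2-Q10 were -0.55 and -0.61 in OSKM#2 and 1.24 and 0.91 in SNEL#1, against -0.79 and -0.97 in the ESCs. Both lines with a mean above 0, Oct4-GFP SNEL#1 and Nanog-GFP ESCs, stood apart from the lines of their own origin. H2-Q8 read 0.13 and 0.03 in KH2_OSKM, against -0.92 and -1.25 in KH2 ESCs, and -0.52 and -0.67 in BC_2 OSKM. For H2-Q8 the Nanog-GFP lines read -1.41 and -1.74 in OSKM#2, -1.07 and -2.79 in SNEL#3 and -1.23 and -1.25 in SNEL#2, against -0.06 and -0.39 in the ESCs. Oct4-GFP values of H2-Q8 were -0.52 and -0.87 in OSKM#2 and 0.83 and 0.55 in SNEL#1, against -1.53 and -1.44 in the ESCs. The arrays of Nanog-GFP SNEL#3 lay 1.72 apart for H2-Q8, and its place in the order is therefore loose. H2-M3, which presents formylated peptides, read -2.10 and -2.32 in KH2_OSKM, against -3.48 and -3.63 in KH2 ESCs, and -1.69 and -1.66 in BC_2 OSKM. For H2-M3 the Nanog-GFP lines read -3.35 and -3.39 in OSKM#2, -4.96 and -5.37 in SNEL#3 and -4.10 and -4.19 in SNEL#2, against -2.25 and -2.24 in the ESCs. Oct4-GFP values of H2-M3 were -3.54 and -3.38 in OSKM#2 and -1.76 and -1.52 in SNEL#1, against -4.26 and -4.19 in the ESCs. H2-M3 was not well above background in Nanog-GFP SNEL#3, and Nanog-GFP ESCs were at least 4.16-fold higher. Every such bound sets the brighter line's mean against the mean, over the dimmer line's arrays, of the higher of the lowest signal well above background and the dim probe's own.

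H2-T9 and H2-T10 stood apart from H2-K1 in their order. H2-T9 read 0.69 and 0.56 in BC_2 OSKM and -0.75 and -0.88 in KH2_OSKM, against -2.29 and -2.28 in KH2 ESCs. Its lowest lines were 2 of the 3 OSKM lines graded poor, Nanog-GFP OSKM#2 at -3.41 and -3.47, against -1.94 and -1.93 in Nanog-GFP ESCs, and Oct4-GFP OSKM#2 at -3.52 and -3.34, against -2.91 and -2.63 in Oct4-GFP ESCs. The arrays of each pair lay apart. H2-T10 read -1.04 and -1.17 in KH2_OSKM, against -2.54 and -2.33 in KH2 ESCs, and -0.16 and -0.24 in BC_2 OSKM. For H2-T10 the Nanog-GFP lines read -3.42 and -3.56 in OSKM#2, -2.84 and -2.81 in SNEL#3 and -3.49 and -3.09 in SNEL#2, against -2.03 and -1.96 in the ESCs. Oct4-GFP values of H2-T10 were -3.95 and -3.83 in OSKM#2 and -2.63 and -2.50 in SNEL#1, against -2.79 and -2.77 in the ESCs. H2-T10 thus had the same lines at its ends, BC_2 OSKM and KH2_OSKM above and the OSKM lines of Nanog-GFP and Oct4-GFP origin below. H2-gs10, now named H2-Q4, had a narrow span of 1.21 with its highest level in Nanog-GFP OSKM#2, 6.62 and 6.72, against 5.63 and 5.69 in Nanog-GFP ESCs. H2-M5 was the 1 gene at least 2-fold lower in KH2_OSKM, where it read 0.90 and 0.74, against 1.88 and 1.95 in KH2 ESCs. H2-Q1 and H2-T24 were dim, with gaps of up to 1.46 and 3.85 between the arrays of a line, and their order of lines cannot be read.

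Of the H2 genes, the class II genes H2-Ab1 and H2-Oa had the widest spans. H2-Ab1, the beta chain of the A molecule, read 2.24 and 2.13 in KH2_OSKM, against -1.12 and -1.15 in KH2 ESCs, and 2.64 and 2.65 in BC_2 OSKM. It read -0.17 and -0.22 in Nanog-GFP OSKM#2, -3.10 and -3.39 in SNEL#3 and -1.73 and -1.59 in SNEL#2, against 1.60 and 1.46 in Nanog-GFP ESCs. It read -0.13 and 0.04 in Oct4-GFP OSKM#2 and 1.96 and 2.13 in Oct4-GFP SNEL#1, against -0.43 and -0.38 in Oct4-GFP ESCs. H2-Ab1 thus spanned 5.89 between Nanog-GFP SNEL#3 and BC_2 OSKM, with arrays of a line at most 0.29 apart, and every iPSC line of Nanog-GFP origin lay below its ESC line. The gap between KH2_OSKM and KH2 ESCs was 3.32, a 9.99-fold difference.

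H2-Ab1 was read by 2 overlapping probes, shown as the 30 bases around the one base in which they differ, which is in capitals:
H2-Ab1, chr17:34406296-34406355, mm9, plus strand: agattacaaataaacgagacTcagactctg
H2-Ab1, chr17:34406305-34406363, mm9, plus strand: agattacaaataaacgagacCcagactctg
Over the 51 bases both cover, the first differs from the second by T51C, counted from the 5′ end of the first probe, the first probe's base given first. Their levels lay 0.20 to 0.35 apart in all 10 lines, and the first spanned 5.89 and the second 5.92.

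The partners of class II followed in part. H2-DMb1 read 1.52 and 1.48 in KH2_OSKM, against -2.64 and -2.73 in KH2 ESCs, and 1.16 and 1.06 in BC_2 OSKM. Unlike H2-Ab1, it was not lowest in Nanog-GFP SNEL#3, which read -0.40 and -0.28, against 0.30 and 0.13 in Nanog-GFP ESCs. H2-Oa read -0.18 and -0.38 in KH2_OSKM, against -5.46 and -5.37 in KH2 ESCs, of which 1 of 2 arrays was well above background. In Nanog-GFP SNEL#3 H2-Oa was not well above background on either array, so Nanog-GFP ESCs were at least 4.98-fold higher. For H2-Oa the Nanog-GFP lines read -2.41 and -2.45 in OSKM#2, -6.16 and -5.39 in SNEL#3 and -4.52 and -4.90 in SNEL#2, against -1.88 and -2.09 in the ESCs. Oct4-GFP values of H2-Oa were -3.54 and -3.38 in OSKM#2 and -2.01 and -2.29 in SNEL#1, against -3.72 and -4.19 in the ESCs. H2-Eb1, the beta chain of the E molecule, read -0.47 and -0.33 in KH2_OSKM, against -3.12 and -3.14 in KH2 ESCs, and 0.07 and 0.05 in BC_2 OSKM. For H2-Eb1 the Nanog-GFP lines read 0.44 and 0.33 in OSKM#2, -2.80 and -2.92 in SNEL#3 and -2.09 and -2.61 in SNEL#2, against -1.37 and -1.51 in the ESCs. Oct4-GFP values of H2-Eb1 were -1.68 and -1.60 in OSKM#2 and -1.41 and -1.55 in SNEL#1, against -2.36 and -2.35 in the ESCs. H2-Eb1 was highest in Nanog-GFP OSKM#2, where H2-Ab1 lay below its ESC line. H2-DMa read -0.53 and -0.75 in KH2_OSKM, against -2.58 and -2.92 in KH2 ESCs, and -0.38 and -0.37 in BC_2 OSKM. For H2-DMa the Nanog-GFP lines read -2.01 and -2.07 in OSKM#2, -2.46 and -3.01 in SNEL#3 and -2.93 and -2.87 in SNEL#2, against -1.83 and -2.07 in the ESCs. Oct4-GFP values of H2-DMa were -2.44 and -2.89 in OSKM#2 and -1.83 and -1.90 in SNEL#1, against -3.11 and -3.20 in the ESCs. H2-DMa was high in KH2_OSKM and BC_2 OSKM alone, and its other 8 lines lay between -3.16 and -1.86. H2-Ob was dim, with gaps of up to 2.56 between arrays, and H2-Aa, the alpha chain of the A molecule, was well above background on 1 of 20 arrays, in KH2_OSKM.

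**Figure D2:**
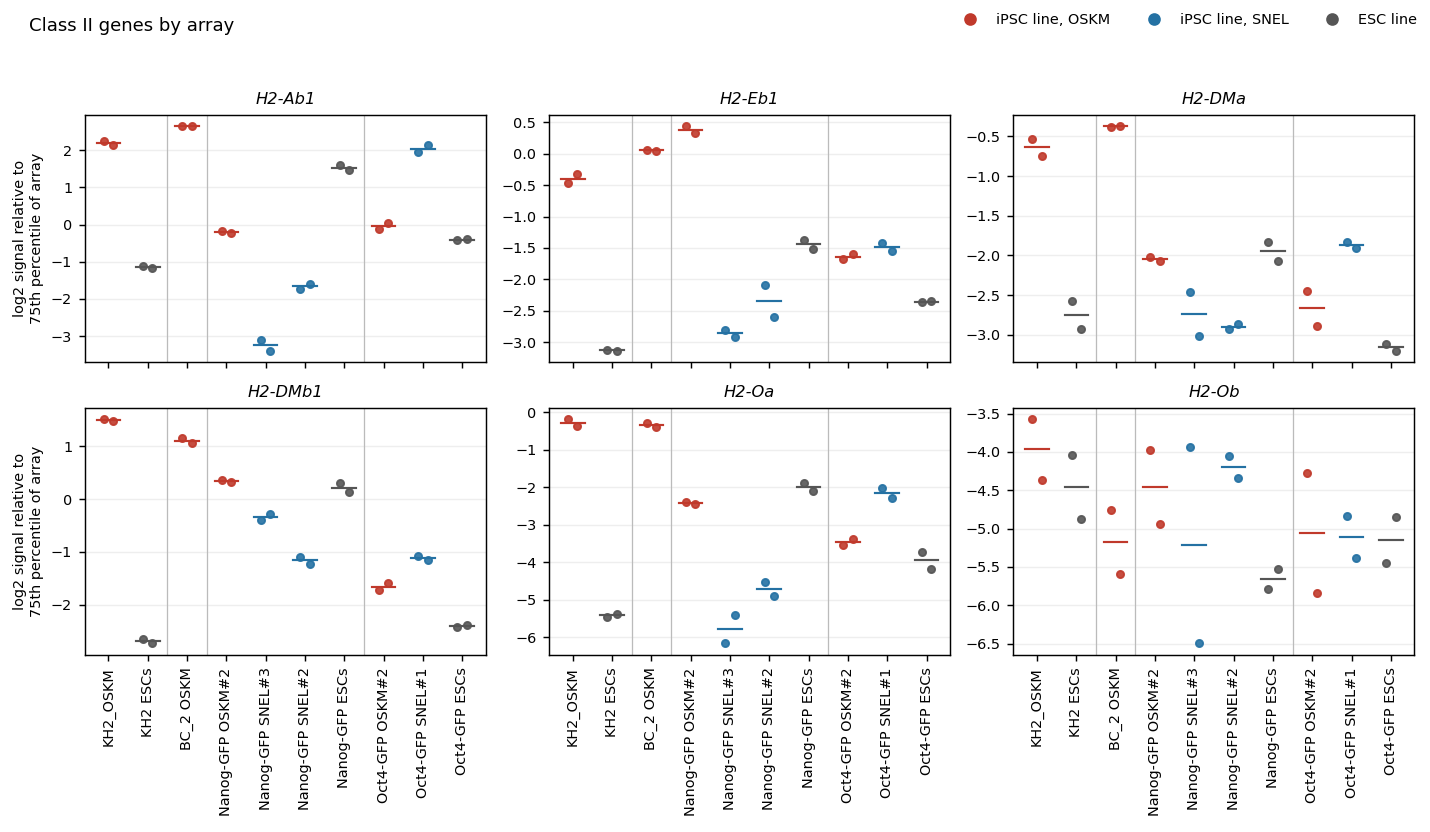
Log2 signal over the array's 75th percentile for 6 class II genes in the 10 lines, a dot per array and a bar at the line mean, with a separate vertical scale in each panel. H2-Ab1, H2-DMa, H2-DMb1 and H2-Oa are highest in KH2_OSKM or BC_2 OSKM, H2-Eb1 is highest in Nanog-GFP OSKM#2, and the arrays of H2-Ob lie up to 2.56 apart within a line.

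The remaining measured members carry an H2 name but have no known antigen presenting role. H2-Ke2, now Pfdn6, encodes a prefoldin subunit and H2-Ke6, now Hsd17b8, a mitochondrial dehydrogenase. They spanned 0.91 and 0.78, below the median span of all genes, and passed 2-fold in none of the 6 comparisons of an iPSC with an ESC line. The 15 H2 genes outside the filter were H2-Aa, H2-DMb2, H2-Ea-ps, H2-Eb2, H2-M1, H2-M2, H2-M9, H2-M10.1, H2-M10.2, H2-M10.3, H2-M10.4, H2-M10.6, H2-M11, H2-T18 and H2-T3-like. Their probes were well above background on 0 or 1 array, apart from 1 probe of H2-M9 with 2, and 7 of those 10 readings came from KH2_OSKM. All of these 7 probes but that of H2-M10.2 were brighter on array 1 of that line. Array 1 had 77.2% of all its probes well above background, against 58.3% on array 2, so the readings may belong to the array and not the line.

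Ubd and Gm10499 were read by 1 probe each, of which the first 30 of 60 bases are shown to identify them:
Ubd, chr17:37332688-37332747, mm9, plus strand: agccgatttcctctgagctattaccaatca
Gm10499, chr17:36278728-36278787, mm9, minus strand: tctgtaatggaatcccatgtacccttatag
Neither probe has 17 or more bases in a row in common with another member's probe. Probes outside the members and transcripts were not compared.

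Ubd read 2.05 and 2.16 in KH2_OSKM, against 1.81 and 1.63 in KH2 ESCs. It read 2.75 and 2.64 in Nanog-GFP OSKM#2, -6.14 and -6.63 in Nanog-GFP SNEL#3 and -6.97 and -7.39 in Nanog-GFP SNEL#2, against 0.93 and 0.79 in Nanog-GFP ESCs. It read -8.04 and -8.20 in Oct4-GFP OSKM#2 and -6.36 and -8.34 in Oct4-GFP SNEL#1, against 1.68 and 1.62 in Oct4-GFP ESCs, and -7.84 and -7.58 in BC_2 OSKM. The 10 arrays of KH2_OSKM, Nanog-GFP OSKM#2 and the 3 ESC lines were well above background, and the 10 arrays of the other 5 iPSC lines were not. The ESC line of its origin was at least 35.9-fold higher than Nanog-GFP SNEL#3, 60.6-fold higher than Nanog-GFP SNEL#2, 236-fold higher than Oct4-GFP OSKM#2 and 116-fold higher than Oct4-GFP SNEL#1. Among the 5 bright lines the order was Nanog-GFP OSKM#2, KH2_OSKM, KH2 ESCs, Oct4-GFP ESCs and Nanog-GFP ESCs, of which KH2 ESCs and Oct4-GFP ESCs overlapped. Levels among the 5 dim lines are not ordered, since they were not above background.

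Gm10499 had nearly the same split, with BC_2 OSKM on the bright side. It read 3.59 and 3.62 in KH2_OSKM, against 3.81 and 3.74 in KH2 ESCs, and 3.62 and 3.63 in BC_2 OSKM. It read 3.63 and 3.66 in Nanog-GFP OSKM#2, -6.03 and -6.48 in SNEL#3 and -6.86 and -7.24 in SNEL#2, against 4.17 and 4.12 in Nanog-GFP ESCs. It read -7.89 and -8.08 in Oct4-GFP OSKM#2 and -4.48 and -4.08 in Oct4-GFP SNEL#1, against 3.96 and 3.95 in Oct4-GFP ESCs. The 6 bright lines lay within 0.54 of each other. The ESC line was at least 349-fold higher than Nanog-GFP SNEL#3, 589-fold higher than Nanog-GFP SNEL#2 and 1167-fold higher than Oct4-GFP OSKM#2. In Oct4-GFP SNEL#1, where 1 of 2 arrays was well above background, the fold below Oct4-GFP ESCs was 302. Of the ESC lines all 3 were bright in both genes, of the 4 OSKM lines 2 were bright in Ubd and 3 in Gm10499, and all 3 SNEL lines were dim in both. Origin did not part bright from dim lines: the Nanog-GFP and the Oct4-GFP lines held both kinds.

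**Figure D3:**
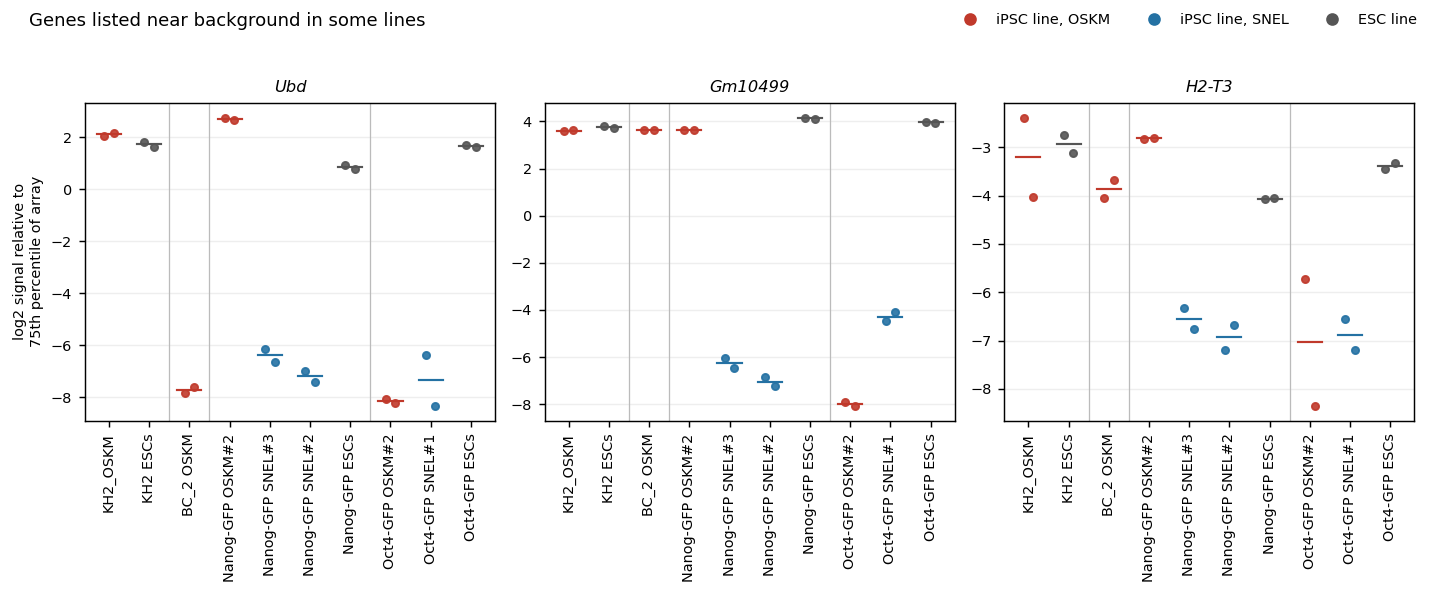
Log2 signal over the array's 75th percentile for Ubd, Gm10499 and H2-T3 in the 10 lines, a dot per array and a bar at the line mean, with a separate vertical scale in each panel. All 3 are higher in the ESC lines, KH2_OSKM and Nanog-GFP OSKM#2 than in the 3 SNEL lines and Oct4-GFP OSKM#2, and BC_2 OSKM is on the low side only for Ubd.

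H2-T3 (chr17:36322516-36322575, minus strand) was higher in the same 6 lines as Gm10499. It was well above background on both arrays of the same 6 lines, on 1 array of Oct4-GFP OSKM#2 and on none of the 3 SNEL lines. It read -2.39 and -4.04 in KH2_OSKM, against -2.75 and -3.11 in KH2 ESCs, and -4.04 and -3.68 in BC_2 OSKM. For H2-T3 the Nanog-GFP lines read -2.82 and -2.80 in OSKM#2, -6.33 and -6.76 in SNEL#3 and -7.19 and -6.68 in SNEL#2, against -4.08 and -4.05 in the ESCs. Oct4-GFP values of H2-T3 were -5.72 and -8.36 in OSKM#2 and -6.56 and -7.20 in SNEL#1, against -3.46 and -3.33 in the ESCs. The arrays of KH2_OSKM lay on either side of those of KH2 ESCs. Oct4-GFP ESCs were at least 3.50-fold higher than Oct4-GFP SNEL#1, while Nanog-GFP ESCs were at least 2.00-fold higher than Nanog-GFP SNEL#2 and at least 1.18-fold higher than Nanog-GFP SNEL#3. Its probe shares 22 bases in a row with 1 of 2 H2-Q10 probes, whose own order of lines was different, with Oct4-GFP SNEL#1 highest at -0.89. Other genes of the region with the 6 lines above the other 4 were sought, a search chosen after the values had been seen. Besides Gm10499 and H2-T3 they were 2410017I17Rik, LOC633417, LOC100044034, Mucl3, Hspa1l and Vars2. The search covered the measured members and the 169 other genes between the outermost H2 probes. It took the order of lines alone, whatever the gap. Vars2 was well above background on all 20 arrays and lay at 0.15 in Nanog-GFP OSKM#2, against 0.04 in Oct4-GFP OSKM#2. Hspa1l lay at -4.05 and -4.29 in these 2 lines. Over all genes 1.2% had these 6 lines highest. 2410017I17Rik (chr17:36299990-36300049) and LOC633417 (chr17:36323454-36323516), whose probes lie on either side of H2-T3, were well above background on both arrays of the 6 lines and on none of the other 8 arrays. 2410017I17Rik was between -4.67 and -3.22 in the 6 lines.

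The comparison of origins asked whether lines that share a name share H2 levels. With limma, which fitted all 27161 genes with Benjamini-Hochberg adjustment, 0 of the 25 H2 genes were called by origin over the Nanog-GFP, Oct4-GFP and KH2 lines, against 0.00368% of all genes. None of the H2 genes had an unadjusted p under 0.05 there, and the smallest adjusted p was 1. None was called for Nanog-GFP over Oct4-GFP lines (0.00368% of all genes), for Nanog-GFP over KH2 lines (0%) or for Oct4-GFP over KH2 lines (0.00368%). Unadjusted p-values under 0.05 in these 3 numbered 0, 0 and 1, the last for H2-T9. H2-K1 averaged 1.71 ± 0.85 in 4 Nanog-GFP lines and 2.00 ± 0.62 in 3 Oct4-GFP lines (SD), a limma difference of -0.29 ± 0.58 (SE, adjusted p = 0.986). Origin took a median of 19.1% of the variance of line means over the H2 genes, against 19.4% over all genes, in the 9 lines that have an origin in common with another. Neither share exceeded what labels unrelated to the levels give on average for this grouping. H2-gs10 had the highest share, 44.9%.

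Grade and factors were tested in the same way. By grade 0 of 25 H2 genes were called, against 0% of all genes, and likewise 0 and 0% for poor over ESC lines, for good over ESC lines, for high over ESC lines and for poor over good and high lines. Unadjusted p-values under 0.05 numbered 1 in the test over grades, H2-T24, and 2 for high over ESC lines, H2-T24 and H2-T3. H2-T3 averaged -6.91 ± 0.04 in 2 high lines and -3.46 ± 0.57 in 3 ESC lines (SD), a limma difference of -3.44 ± 1.26 (SE, adjusted p = 0.832). Neither high line had H2-T3 well above background, so its level there is only a bound. By factors 0 of 25 were called, against 0.0147% of all genes, and for SNEL over OSKM lines 0 of 25, against 0.00736%. H2-Eb1 came nearest: it averaged -2.23 ± 0.70 in 3 SNEL lines and -0.40 ± 0.89 in 4 OSKM lines (SD), a limma difference of -1.83 ± 0.56 (SE, adjusted p = 0.514). With the line as a random block over the 20 arrays, limma called H2-Eb1 by factors (adjusted p = 0.0471). The limma F test over factors on line means gave it an adjusted p of 0.296. The block fit set 1 correlation between the arrays of a line, 0.69, for all genes. H2-Eb1 arrays of a line lay at most 0.52 apart, against a span of 3.51. The block fit thus counted them as partly independent, and its call is not read as a result. H2-T3 and H2-D1 also had unadjusted p-values under 0.05 for SNEL over OSKM lines. Without Oct4-GFP OSKM#2, the 1 OSKM line dim for H2-T3, limma called that gene by factors and for SNEL over OSKM lines. H2-T3 was well above background on 0 of 6 SNEL arrays and passed the filter through the other lines, so that call sets background readings against signal and is not read as a result. Grade took a median of 16.8% of the variance of line means over the H2 genes, against 30.3% over all genes, and factors took 15.6%, against 24.4%. Labels unrelated to the levels give on average 33.3% for the grouping by grade and 22.2% for that by factors.

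Each iPSC line was then set beside the ESC line of its origin, with 1 line a side and therefore no test. KH2_OSKM had 14 of 25 H2 genes at least 2-fold higher than KH2 ESCs, where 13.8% of all genes were, and 1 lower, where 6.69% were. With replicate 1 or replicate 2 left out in both lines, 14 to 15 genes in all passed 2-fold. Oct4-GFP SNEL#1 had 14 higher than Oct4-GFP ESCs (8.6% of all genes) and 2 lower (6.71%). The opposite held in the SNEL lines of Nanog-GFP origin. Nanog-GFP SNEL#3 had 0 higher than Nanog-GFP ESCs (6.38% of all genes) and 15 lower (10.2%), and Nanog-GFP SNEL#2 had 1 higher (6.33%) and 15 lower (8.64%). Nanog-GFP OSKM#2 had 4 higher (6.74%) and 9 lower (7.11%). Oct4-GFP OSKM#2 differed least from its ESC line, with 0 higher (5.57%) and 3 lower (3.77%). The 13 genes of Nanog-GFP OSKM#2 became 7 with normexp and quantile normalization and 8 in the authors' table, and the 16 of Nanog-GFP SNEL#2 became 10 with normexp and quantile normalization. The 3 of Oct4-GFP OSKM#2 became 1 in both, and 4 to 5 with a replicate left out. The 3 lines of Nanog-GFP origin share 1 ESC line and the 2 of Oct4-GFP origin another, so counts within an origin are not independent.

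The medians gave the same picture. The median log2 difference of the 25 H2 genes was 1.23 for KH2_OSKM over KH2 ESCs, against -0.01 over all genes. It was -0.54 for Nanog-GFP OSKM#2, -1.30 for Nanog-GFP SNEL#3 and -1.28 for Nanog-GFP SNEL#2 over Nanog-GFP ESCs, against -0.01, 0.00 and 0.01 over all genes. It was 0.05 for Oct4-GFP OSKM#2 and 1.06 for Oct4-GFP SNEL#1 over Oct4-GFP ESCs, against -0.05 and -0.15. Neither grade nor factor set therefore had 1 direction in this median of 25 genes. By it the OSKM lines graded poor lay above, below and level with their ESC lines. The 2 SNEL lines graded high, Nanog-GFP SNEL#2 and Oct4-GFP SNEL#1, lay on opposite sides. Classes of genes differed within a line. Within the class II genes the median difference was 3.03 for KH2_OSKM over KH2 ESCs and 1.29 for Oct4-GFP SNEL#1 over Oct4-GFP ESCs. For Oct4-GFP OSKM#2 it was 0.49, with all 6 genes above the ESC line. Over Nanog-GFP ESCs it was 0.02 for OSKM#2, -1.10 for SNEL#3 and -1.16 for SNEL#2. The Q, T and M genes of Nanog-GFP OSKM#2 had a median of -1.05. Each of these pairs had arrays on a common slide, and there H2-K1 in KH2_OSKM exceeded KH2 ESCs by 1.77 and in Nanog-GFP SNEL#3 lay at -1.94 relative to Nanog-GFP ESCs.

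**Figure D4:**
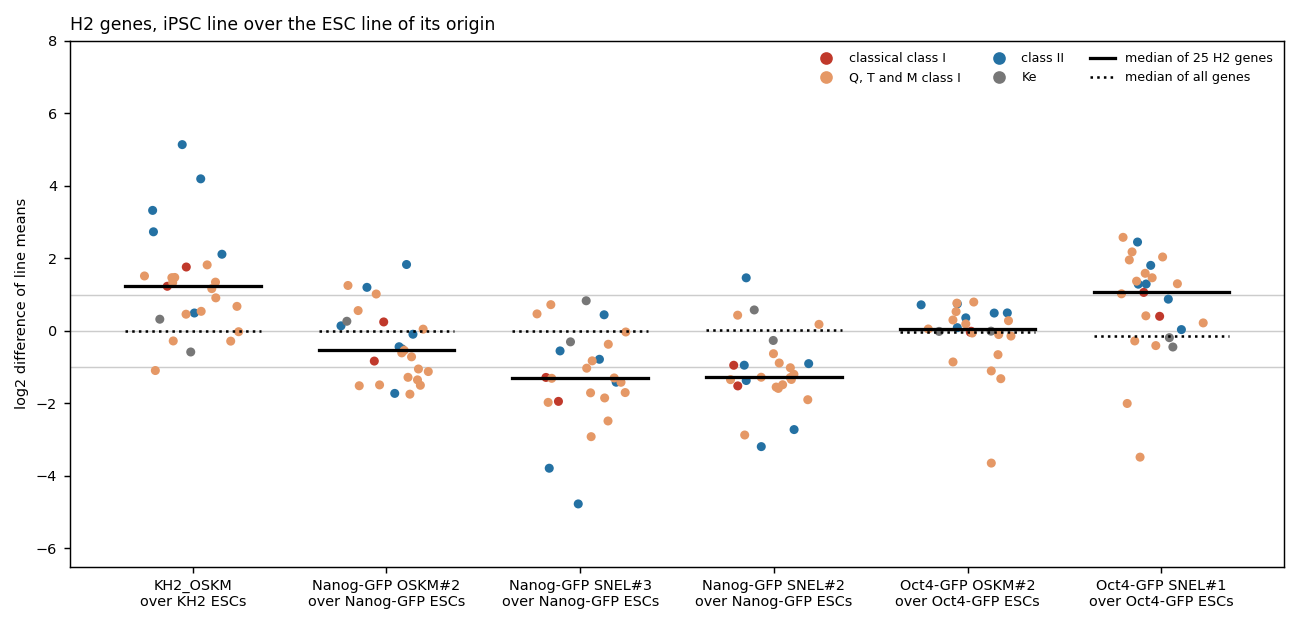
Log2 difference of line means between each iPSC line and the ESC line of its origin, a dot for each of 25 H2 genes coloured by class, with a solid bar at their median and a dotted bar at the median of all genes; dots are spread sideways only for legibility. The median H2 gene lies above 1 for KH2_OSKM and Oct4-GFP SNEL#1 and below -1 for both SNEL lines of Nanog-GFP origin.

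Genes that act with the H2 products were followed from a list of class I antigen processing genes, of which 17 of 18 were measured. limma called 0 of these 17 in any of the 11 tests by origin, grade or factors, with at most 3 at an unadjusted p under 0.05 in a test. In KH2_OSKM 6 of the 17 were at least 2-fold higher than in KH2 ESCs and 1 lower, with a median of 0.23. In Oct4-GFP SNEL#1 5 were higher and 2 lower than in Oct4-GFP ESCs, with a median of 0.08. In Oct4-GFP OSKM#2, whose H2-K1 level was that of its ESC line, 3 were higher and 0 lower, with a median of 0.05. Relative to Nanog-GFP ESCs, 2 were higher and 1 lower in Nanog-GFP OSKM#2 (median -0.33), 0 and 3 in Nanog-GFP SNEL#3 (median 0.13), and 1 and 3 in Nanog-GFP SNEL#2 (median 0.01). Some members differed between the same lines as H2-K1 and in the same direction, while others went the other way. B2m, the light chain of class I, read 3.05 and 2.86 in KH2_OSKM, against 1.51 and 1.55 in KH2 ESCs. Tap1, a subunit of the peptide transporter, read -5.62 and -5.65 in Nanog-GFP SNEL#3, against -2.74 and -2.89 in Nanog-GFP ESCs, and -2.59 and -2.59 in Oct4-GFP SNEL#1, against -5.47 and -5.48 in Oct4-GFP ESCs. Tap1 was not well above background in Nanog-GFP SNEL#3, and Nanog-GFP ESCs were at least 2.81-fold higher. Psmb9, an immunoproteasome subunit, read 1.09 and 0.89 in KH2_OSKM, against -1.75 and -1.88 in KH2 ESCs. The arrays of these pairs did not overlap, and Tap1, Tap2 and Psmb9 lie in the H2 region itself. In the opposite direction, Psmb10 lay at 4.03 in KH2_OSKM, against 4.78 in KH2 ESCs. In Oct4-GFP SNEL#1 it lay at 3.62, against 4.68 in Oct4-GFP ESCs. Tapbpl lay at -2.70 in KH2_OSKM, against -1.23 in KH2 ESCs, and at -3.11 in Oct4-GFP SNEL#1, against -2.06 in Oct4-GFP ESCs. The chaperones Calr and Canx spanned 0.55 and 0.32 over the 10 lines.

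Of the class II list 8 of 10 genes were measured, and limma called 0 of them in the 11 tests. In KH2_OSKM 3 were at least 2-fold higher than in KH2 ESCs (Cd74, Ifi30 and Rfxap) and 1 lower (Rfx5, near background), with a median of 0.37. In Nanog-GFP SNEL#3 0 were higher and 2 lower than in Nanog-GFP ESCs, with a median of -0.53. Cd74, the invariant chain that escorts class II, read -0.58 and -0.89 in KH2_OSKM, against -2.51 and -2.97 in KH2 ESCs, and -0.32 and -0.55 in BC_2 OSKM. Its lowest line was Nanog-GFP SNEL#3, as for H2-Ab1. Ciita, the class II transactivator, did not pass the filter. Of an interferon response list 7 of 12 genes were measured, and their median lay between -0.41 and 0.41 of the gene means in the 10 lines. In KH2_OSKM 2 of the 7 were at least 2-fold higher than in KH2 ESCs, with a median of 0.42: Irf7, near background, and Bst2, which read 4.20 and 4.31 in KH2_OSKM, against 3.01 and 2.84 in KH2 ESCs. In Nanog-GFP OSKM#2 1 was higher and 3 lower than in Nanog-GFP ESCs, with a median of -0.74. Irf1, an activator of class I genes from the processing list, read 3.45 and 3.58 in KH2_OSKM, against 3.55 and 3.45 in KH2 ESCs, and spanned 0.82.

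**Figure D5:**
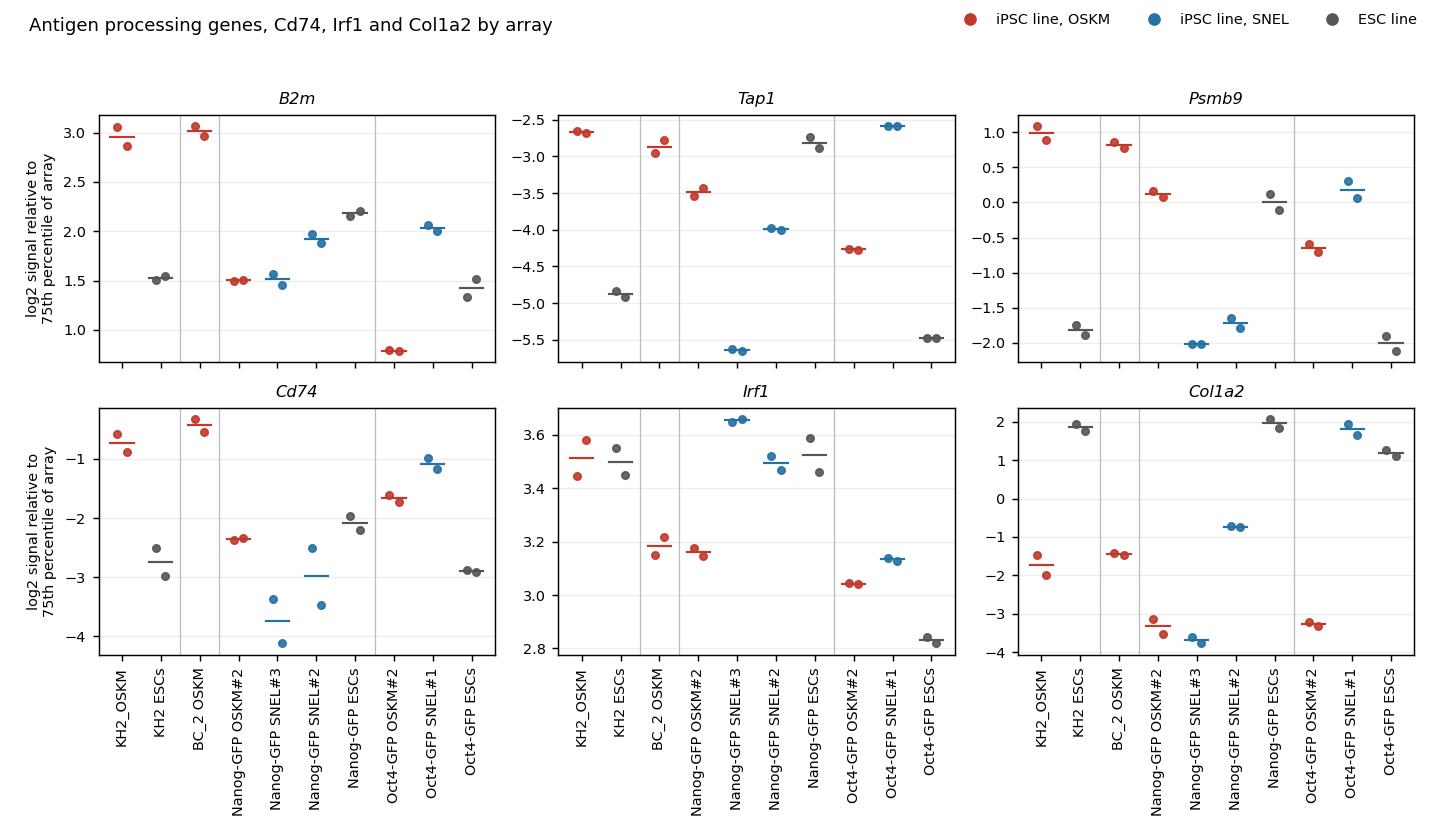
Log2 signal over the array's 75th percentile for B2m, Tap1, Psmb9, Cd74, Irf1 and the fibroblast collagen gene Col1a2 in the 10 lines, a dot per array and a bar at the line mean, with a separate vertical scale in each panel. B2m, Tap1, Psmb9 and Cd74 are higher in KH2_OSKM than in KH2 ESCs, Irf1 spans 0.82, and Col1a2 is lower in KH2_OSKM than in KH2 ESCs.

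Markers of other cells were read beside these levels, since in bulk RNA fewer cells of a type and less RNA per cell cannot be told apart. All 10 fibroblast markers were measured. Their summed signal relative to the 75th percentile was 2.69 in KH2_OSKM, against 13.4 in KH2 ESCs, and 8 of the 10 were at least 2-fold lower there, while the H2 genes were higher. It was 2.13 in Nanog-GFP OSKM#2, 1.53 in Nanog-GFP SNEL#3 and 2.32 in Nanog-GFP SNEL#2, against 10.4 in Nanog-GFP ESCs, where 7 to 8 of the 10 were lower along with the H2 genes. It was 4.11 in Oct4-GFP OSKM#2 and 11.4 in Oct4-GFP SNEL#1, against 7.49 in Oct4-GFP ESCs. In BC_2 OSKM it was 3.13. Fibroblast markers and H2 genes thus differed in the same direction in the Nanog-GFP lines and in opposite directions in KH2_OSKM. In Oct4-GFP SNEL#1 both medians lay above the ESC line, at 0.52 for the markers and 1.06 for the H2 genes. There 0 of the 10 markers passed 2-fold in either direction. In Oct4-GFP OSKM#2 8 of the 10 markers were lower and the H2 median was 0.05. The part of such cells in the H2 levels was not tested. Of the blood and antigen presenting cell list 8 of 10 were measured, and Itgax and Tyrobp were not. Its summed signal was 14.0 in KH2_OSKM, against 15.3 in KH2 ESCs, and lay between 13.0 and 16.2 in the 10 lines. Cd74 was the 1 gene of it past 2-fold in KH2_OSKM, in Oct4-GFP OSKM#2 and in Oct4-GFP SNEL#1, while in Nanog-GFP SNEL#3 Laptm5 was 1.02 above Nanog-GFP ESCs and Cd74 lay at -1.66 relative to them. Ptprc (CD45), the defining marker of blood cells, was well above background on 9 of 20 arrays and read -4.03 and -6.54 in KH2_OSKM, against -5.14 and -4.88 in KH2 ESCs.

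Where a gene had several probes above background, they were compared. H2-Q2 had 2 probes on all 20 arrays that lay 0.66 to 1.21 apart over the 10 lines. H2-Q10 had 2 probes that disagreed: they lay 1.36 apart in BC_2 OSKM and 4.18 apart in Nanog-GFP SNEL#3, where the dimmer one was not above background. The brighter spanned 2.26 and the dimmer 4.23. The sequences of these lines at the probed bases were not analysed here.

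Promoter sequences were shown for a class I gene, a class II gene and Ubd, since genes of both classes were higher in KH2_OSKM than in KH2 ESCs. RefSeq (build GRCm38.p6) held promoters of 32 of the 42 members, each 250 bases before to 50 after a start. A single motif was searched on both strands, and capitals mark its matches, which read CCAATC where they lie on the other strand. The motif sought was GATTGG, the core of the Y box that NF-Y binds, chosen after the values had been seen.
H2-K1, chr17:34000298-34000597, minus strand: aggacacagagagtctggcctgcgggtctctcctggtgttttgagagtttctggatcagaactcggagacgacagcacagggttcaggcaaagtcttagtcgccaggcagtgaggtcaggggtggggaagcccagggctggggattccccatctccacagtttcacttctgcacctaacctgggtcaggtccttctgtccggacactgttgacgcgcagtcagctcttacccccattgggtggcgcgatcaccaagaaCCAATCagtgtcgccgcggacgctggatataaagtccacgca
H2-Eb1, chr17:34305617-34305916, plus strand: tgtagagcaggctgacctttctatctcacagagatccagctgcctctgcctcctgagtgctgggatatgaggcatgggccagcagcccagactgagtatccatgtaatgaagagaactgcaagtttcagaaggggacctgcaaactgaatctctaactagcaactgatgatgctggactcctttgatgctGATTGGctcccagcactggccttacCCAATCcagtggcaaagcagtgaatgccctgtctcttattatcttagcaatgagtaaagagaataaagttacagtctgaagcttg
Ubd, chr17:37193642-37193941, plus strand: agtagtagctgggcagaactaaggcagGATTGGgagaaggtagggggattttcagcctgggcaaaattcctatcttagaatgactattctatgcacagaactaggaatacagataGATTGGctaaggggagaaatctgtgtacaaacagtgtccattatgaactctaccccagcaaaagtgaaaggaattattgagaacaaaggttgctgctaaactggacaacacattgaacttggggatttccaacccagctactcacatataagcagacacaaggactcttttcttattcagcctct
GATTGG lay in at least 1 promoter of 24 of the 32 members, of all 8 class II genes and of 14 of 20 class I genes, and in 16.1% of the 32851 promoters in the table. The member counts are of genes and the 16.1% is of single promoters. A gene with several promoters has more chances of a match, so these shares cannot be compared directly. H2-Ab1 was not among the entries. A match is a run of letters in this window and was not tested as a binding site.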

How the data were processed

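Agilent Feature Extraction files of 20 one-colour arrays, 2 for each of 10 lines, were used. Per the file headers, the authors deposited scanner intensity values, of which the processed signal had been background-corrected by Agilent's software, with probe positions on mm9. The authors' deposited value table holds log2 values with column medians between 6.27 and 6.28; the submitters' processing notes name limma, and the centring is not given in the sources used here. The table served as an alternative. The scale and rank order were checked against the scanner values.

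Control spots were left out, repeated spots averaged, and log2 signals set relative to the 75th percentile of each array. A gene was read by its brightest probe, and the 27161 genes tested had a probe that passed the scanner's call of well above background on 4 or more of the 20 arrays. The 2 arrays of a line were averaged, and the 10 lines were fitted with limma 3.58.1 in R 4.3.3 (lmFit and eBayes), with Benjamini-Hochberg adjustment over all 27161 genes and a threshold of 0.05. The number of lines limits the precision. The fit was tested on simulated data. Named genes were those whose line means spanned at least 2 on the log2 scale, with Ubd and Gm10499. The members and lists were chosen with earlier results of these data known. Exon and UTR annotation of mm9 was not used here. Promoter sequences came from RefSeq.

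Each of the 3 slides held several lines, and every iPSC line shared a slide with the ESC line of its origin. Replicate number and slide went together in part: 8 of the 10 first arrays lay on slide 1, and the second arrays lay on slide 2 (6) and slide 3 (4). Over 45 pairs of lines, the correlation of their array differences ran from -0.10 to 0.51, with a median of 0.17. It was above 0.1 in 29 pairs, so most pairs shared part of their array differences. The main fit did not pair the lines by replicate number, which was fitted as a block among the alternatives. Alternatives were another background correction and normalization (normexp with quantile), the authors' table, other filters and folds, each replicate or line left out, and the line, slide or replicate number as a block.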

Additional observations from a re-analysis of the deposited data

Results flagged for a closer look

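Among 40 groups of 4 lines screened for a line far from the others, 4 held one. The flagged genes had been picked for a wide span between lines or for line-specific values. The count is therefore a description and no test. In the Nanog-GFP lines, the ESC line lay far above the 3 iPSC lines for H2-Q2, at 3.04, and for the dim H2-Q1, at -4.34. H2-T24 lay at -4.84 in Nanog-GFP SNEL#2, far below the other Nanog-GFP lines, though its arrays lay up to 3.85 apart within a line. Gm10499, which had been picked for such values, lay at -7.98 in Oct4-GFP OSKM#2, far below the other 3 OSKM lines. It was not well above background there, so this repeats the split for which it was chosen.

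For 7 genes the OSKM line lay above its ESC line in one origin and below it in another, with no overlap of arrays and at least 2-fold each way. They were Ubd and 6 of the 25 H2 genes, and 1243 of all 27161 genes (4.58%) met the same rule. The differences between origins were not tested, since each rests on 1 line a side. H2-Ab1 differed by -1.73 for Nanog-GFP OSKM#2 over Nanog-GFP ESCs and by 3.32 for KH2_OSKM over KH2 ESCs. In the same 2 comparisons H2-M3 differed by -1.12 and 1.34, H2-Q8 by -1.35 and 1.16, and H2-T9 by -1.50 and 1.47. H2-T10 differed by -1.49 for Nanog-GFP OSKM#2, by -1.11 for Oct4-GFP OSKM#2 and by 1.33 for KH2_OSKM, each over its ESC line. H2-T3 differed by 1.25 for Nanog-GFP OSKM#2 and by -3.65 for Oct4-GFP OSKM#2. Ubd differed by 1.84 for Nanog-GFP OSKM#2 and by -9.77 for Oct4-GFP OSKM#2, where it was not well above background.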

How the results depend on the processing

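Of 212 recomputed limma counts of H2 genes, 209 were 0. Without Oct4-GFP OSKM#2, 1 gene (H2-T3) was called by factors and 1 for SNEL over OSKM, so the range over lines left out was 0 to 1 for both, and 0 to 0 for the other tests. H2-T3 was well above background on 0 of 6 SNEL arrays, so that call rests on background readings. With the line as a random block over 20 arrays, 1 gene (H2-Eb1, adjusted p = 0.0471) was called by factors. That fit counts the 2 arrays of a line as partly independent, so its call is not read as a result. The replicate block, which goes with the slide in part, and the slide as a block each gave 0 calls in every test and changed no call. The counts of H2 genes past 2-fold kept within 1.5 times in 55 of 72 cases. The main counts were 13 for Nanog-GFP OSKM#2, 15 for Nanog-GFP SNEL#3, 16 for Nanog-GFP SNEL#2, 3 for Oct4-GFP OSKM#2, 16 for Oct4-GFP SNEL#1 and 15 for KH2_OSKM. Under normexp with quantile normalization they were 7 for Nanog-GFP OSKM#2, 10 for Nanog-GFP SNEL#2 and 1 for Oct4-GFP OSKM#2. In the authors' table they were 8 for Nanog-GFP OSKM#2 and 1 for Oct4-GFP OSKM#2. With no filter they were 28 for Nanog-GFP SNEL#3, 6 for Oct4-GFP OSKM#2 and 27 for KH2_OSKM, as more genes were counted. With genes above background on all 20 arrays Oct4-GFP OSKM#2 had 1, and at 1.5-fold it had 9. At 4-fold the counts were 0 for Nanog-GFP OSKM#2, 4 for Nanog-GFP SNEL#3, 3 for Nanog-GFP SNEL#2, 1 for Oct4-GFP OSKM#2, 6 for Oct4-GFP SNEL#1 and 5 for KH2_OSKM. With 1 replicate left out they ranged from 11 to 12 for Nanog-GFP OSKM#2, 15 to 17 for Nanog-GFP SNEL#3, 16 to 17 for Nanog-GFP SNEL#2, 4 to 5 for Oct4-GFP OSKM#2, 15 to 16 for Oct4-GFP SNEL#1 and 14 to 15 for KH2_OSKM. The cause of the other changes was not tested. Of the differences of named genes, 75 were at least 2-fold, and all 525 recomputed values of these kept their sign. Smaller differences were not counted. Signal over background limits H2-Q1, H2-T24, H2-Ob and the low side of Ubd, Gm10499 and H2-T3.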

Other observations

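Among other genes of the H2 region, Tap2, the partner of Tap1 in the peptide transporter, lay at -0.20 in KH2_OSKM, against -2.52 in KH2 ESCs, and at -0.43 in Oct4-GFP SNEL#1, against -3.18 in Oct4-GFP ESCs. It lay at -3.29 in Nanog-GFP SNEL#3 and -2.49 in Nanog-GFP SNEL#2, against -0.55 in Nanog-GFP ESCs. The complement gene C2 lay at 2.87 in KH2_OSKM, against -0.14 in KH2 ESCs, and at 0.82 in Nanog-GFP SNEL#3, against 2.13 in Nanog-GFP ESCs. H2-K2, which the array lists as Gm7035 and the name rule therefore left out, lay at 2.84 in KH2_OSKM, against 0.93 in KH2 ESCs, and at -0.06 in Nanog-GFP SNEL#3, against 1.87 in Nanog-GFP ESCs. These are levels of 1 line a side and were not tested.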
